A study of Mus musculus with 26 samples.

Results

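The genes described here are the ion pumps and ATP-binding cassette (ABC) transporters measured in 5 exocrine glands of mice: the pumps that move sodium, protons, calcium and copper with the energy of ATP, the lipid flippases, the Fxyd regulators of the sodium pump, and the ABC families A to G. The rule reads gene symbols and no measured value, but the group of genes was proposed with earlier results of these data known. A probe was a member if its symbol began with Abca to Abcg and a digit, or with Atp1a, Atp1b, Atp2, Atp4, Atp6, Atp7, Atp8, Atp10, Atp11 or Fxyd; Atp1b1, Fxyd2 and Atp2a1 were set apart beforehand. This gave 67 of the 10500 probes on the array, for 66 of 8841 named genes, because Abcc1 had 2 probes (298 and 4218). A probe was tested if every array of at least 1 group held it at or above that array's 30th percentile, and 55 member probes for 54 genes passed, of 8191 probes in all. A probe can pass through the group where it is high, and a test of that group is then not independent of the filter. For example, Abcc2 passed only through the male lacrimal group. Abcc1 probe 4218, Atp7a and Atp8a1 passed only through meibomian tissue, and Atp8b2 only through parotid tissue. The 12 members that did not pass were Abcb1b, Abcb4, Abcc3, Abcc6, Abcd2, Abcg3, Abcg5, Atp2b2, Atp6v1e2, Atp6v1g2, Atp8a2 and Atp8b3. A catalytic subunit of the sodium pump is not analysed here.

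The samples were male and female BALB/c mice, an inbred albino strain, with no genotype or treatment named in the labels and no age given in the sources used here. There were 26 arrays in 10 groups: in males and females alike, 3 pools each for submandibular, lacrimal and meibomian tissue, and 2 pools each for sublingual and parotid tissue. Each array held RNA pooled from 10 glands of 5 animals, so the spread between arrays is a spread between pools and not between animals. Values are scaled intensities, on a linear scale in arbitrary units with an array median of 0.928 to 0.955, and they compare one probe between arrays but not one probe with another. Differences are log2 differences with their standard error (SE) from limma, fitted over all 8191 probes, with p-values adjusted over those probes by the Benjamini-Hochberg method. Each gland was set against the average of the 4 others, and a difference was called at an adjusted p under 0.05 and a log2 difference of at least 1. Between the sexes, male minus female, the adjusted p alone made the call.

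P-type pumps are single large proteins that are phosphorylated as they carry ions across a membrane. In secretory glands the sodium pump sets up the gradient that drives salt and water into the lumen, and calcium pumps refill the stores whose release triggers secretion. V-type pumps are multi-subunit rotary motors that acidify lysosomes, endosomes and secretory granules. ABC transporters use ATP to move lipids, sterols, bile salts, conjugated metabolites and drugs, mostly out of the cell or across an organelle membrane. The meibomian gland is a sebaceous gland of the eyelid that secretes lipid by the bursting of whole cells, whereas the other 4 glands secrete watery or mucous fluid.

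The labels were checked against marker lists. All 3 lacrimal markers, all 4 submandibular markers and all 6 meibomian markers were called higher in the gland they mark. The submandibular markers were not specific to it: 3 of the 4 were also called higher in the sublingual and 2 in the parotid gland, with sums of 201 to 351 in sublingual arrays beside 369 to 864 in submandibular arrays. The 2 parotid markers, Amy1 and Car6, were called higher in each of the 3 salivary glands, so they do not tell the parotid gland from the others, and the sublingual markers listed were not analysed here. The eyelid and parotid samples carried other tissue: 12 of 13 skeletal muscle markers were called higher in each of them, with summed intensities of 255 to 453 in meibomian and 86.3 to 379 in parotid arrays, against 5.53 to 34.4 in the other 3 glands. The 5 keratinocyte markers summed to 126 to 219 in meibomian arrays, against 2.27 to 5.9 in all others, and 5 of 6 adipocyte markers were called higher in the parotid gland. In the sublingual gland 5 of 6 tested T cell markers and 4 of 6 B and plasma cell markers were called higher, and 7 nerve markers summed to 67.4 to 127, against 10.7 to 37.6 in the other glands. The arrays were also split into 2 sets by the sign of their score on the leading principal component of deviations from group means. Set 1 held 10 arrays and set 2 held 16. Set 1 was pool A of the sublingual, parotid and meibomian glands and pool B of the submandibular and lacrimal glands, both sexes. Deviations cancel within a group, so every group holds both sets by construction. Values within a set only describe how a result depends on this split. What separates the sets is not given in the sources used here. In bulk tissue, fewer cells of a type and less RNA per cell cannot be told apart.

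Most members differed between glands. In an F test over the 5 glands 49 of the 55 tested members (89.1%) had an adjusted p under 0.05, beside 80.6% of all probes tested. Abca7, Abcb8, Abcg8, Atp1b2, Atp2a2 (the housekeeping calcium pump of the endoplasmic reticulum) and Atp6v1f did not. At least 1 of the 10 pairs of glands was called for 43 members (78.2%), beside 67.5% of all probes, so the members' shares lay a little above the background. The meibomian gland had the highest geometric mean for 21 members (38.2%, beside 31.6% of all probes), the lacrimal gland for 14 (25.5%, beside 29.1%), the parotid gland for 8 (14.5%, beside 15.1%), and the submandibular and sublingual glands for 6 each (10.9%, beside 13.2% and 11%). In the pairwise tests 7 probes were called above each of the other 4 glands in the meibomian gland (12.7%, beside 8.94% of all probes): Abca1, both Abcc1 probes, Abcd3, Abcg1, Atp6v1g1 and Atp8a1. In the lacrimal gland there were 4 (7.27%, beside 4.41%), Abcb11, Abcb1a, Abcc2 and Atp11a, and in the parotid gland 3 (5.45%, beside 4%), Abca2, Atp8b2 and Fxyd4. In the submandibular and sublingual glands no member was called above each of the others in these tests, beside 1.7% and 1.1% of all probes.

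The meibomian gland had the most member calls. Against the mean of the other 4 glands, 27 of 55 members (49.1%) were called, beside 37.9% of all probes. Of these, 16 were higher, where 17% of all probes were called higher, and 11 were lower, where 20.9% of all probes were called lower. The median log2 difference was 0.30 over members and -0.09 over all probes. The lacrimal gland followed with 15 calls (27.3%, beside 20.2% of all probes), 8 higher (11.6% of all probes) and 7 lower (8.58%). In the parotid gland 9 members were called (16.4%, beside 17.1%), 6 higher (8.95%) and 3 lower (8.13%). The submandibular gland had 5 calls (9.09%, beside 12.3%), 2 higher (5.68%) and 3 lower (6.61%), and the sublingual gland 4 (7.27%, beside 11.2%), 3 higher (5.9%) and 1 lower (5.26%). In the last 3 glands the members' share was near or below the background. Quantile normalization, which moved the median of all probes in the lacrimal gland by -0.18, gave 7 higher and 11 lower members there (38.9% higher, against 53.3%). The share of all probes called under quantile normalization was not counted.

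**Figure D1:**
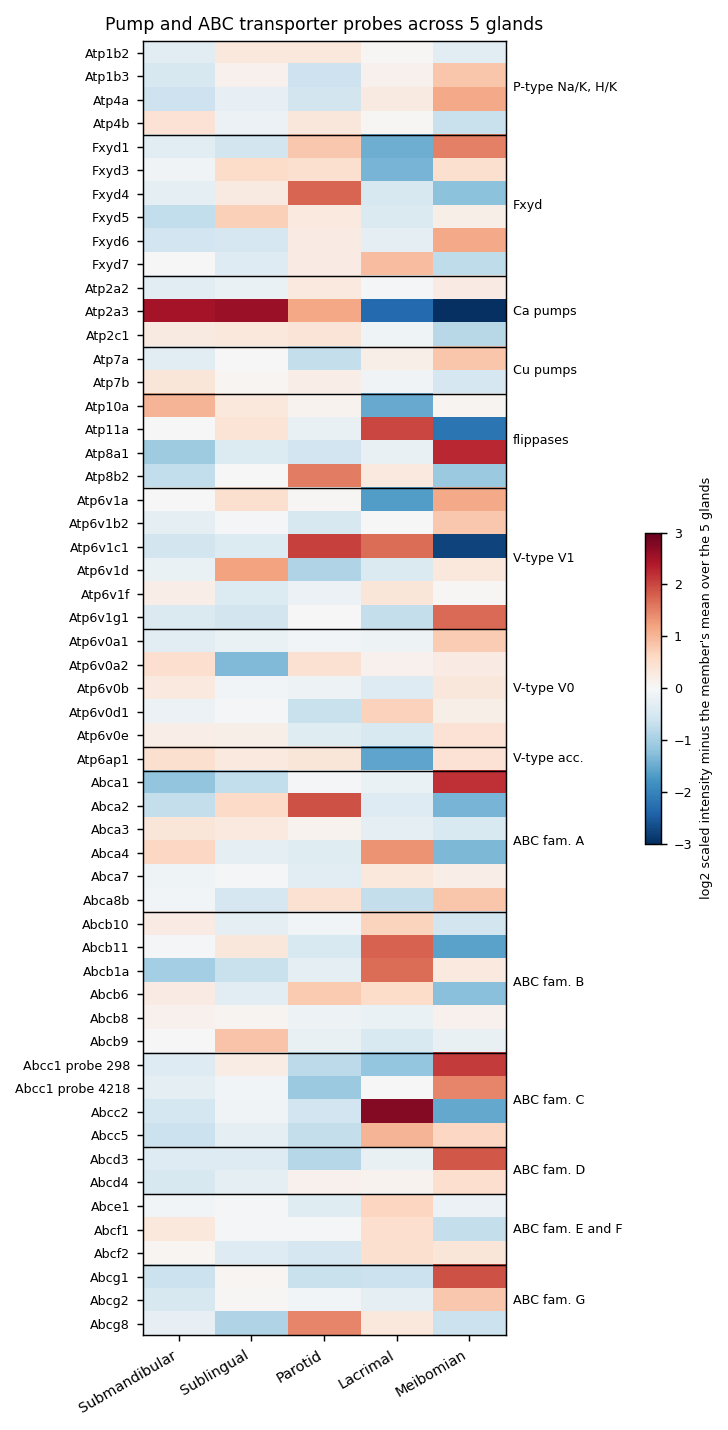
Log2 scaled intensity of each tested member in each gland, as the difference from the member's mean over the 5 glands (colour, cut off at 3 either way), with members in rows by role and glands in columns. The meibomian column holds the most strongly coloured cells, in both directions, and Atp2a3 is highest in the sublingual gland and lowest in the meibomian gland, where it was dim.

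Calcium pumps. Atp2a3, which encodes the calcium pump SERCA3 (chromosome 11, 72961169 to 72993043, GRCm38.p6), separated the salivary glands from the other 2. Its 4 sublingual arrays read 14.3, 6.09, 12 and 7.9, and the 6 submandibular arrays ran from 5.43 to 13 around a median of 9.94. The 4 parotid arrays read 4.75, 2.53, 3.9 and 3.18, the 6 lacrimal arrays ran from 0.214 to 0.493 (median 0.309), and the 6 meibomian arrays from 0.0466 to 0.216 (median 0.0994). No lacrimal or meibomian array reached any salivary array.

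The log2 difference from the mean of the other 4 glands was 3.25 ± 0.32 in the sublingual gland (adjusted p = 2.5e-07), 3.12 ± 0.27 in the submandibular gland (2.63e-08) and 1.44 ± 0.32 in the parotid gland (0.00135). It was -2.91 ± 0.27 in the lacrimal gland (3.07e-08) and -4.89 ± 0.27 in the meibomian gland (3.97e-12). The female lacrimal and both meibomian groups were dim for Atp2a3, below the 30th percentile on every array, so its folds are bounds: at least 6.69-fold lower in the lacrimal gland and at least 10.6-fold lower in the meibomian gland than in the others, and at least 7.14-, 6.51- and 2.04-fold higher in the sublingual, submandibular and parotid glands. A bound puts the 30th percentile of its arrays in the place of a dim group's mean. The sublingual and submandibular glands were the only pair of the 10 not called for this gene (log2 difference -0.11, submandibular minus sublingual, adjusted p = 0.896). Atp2a2 had no gland call, and Atp2c1, the calcium and manganese pump of the Golgi, was called lower in the meibomian gland alone (-1.04).

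Of 10 tested partners in calcium storage and entry, 4 were called higher and none lower in the meibomian gland, and 3 were higher and 1 lower in the lacrimal gland. Among all probes, 17% were called higher and 20.9% lower in the meibomian gland, and 11.6% higher and 8.58% lower in the lacrimal gland. Itpr2, an IP3-gated release channel of the calcium store, was called higher in the meibomian gland (log2 difference 1.72) and lower in lacrimal tissue (-2.39). Atp2a1, the SERCA pump of fast skeletal muscle that was set apart from the members, had geometric means of 66.3 in the meibomian and 63.5 in the parotid gland, against 1.81, 0.591 and 0.516 in the submandibular, sublingual and lacrimal glands. The same glands had the highest summed skeletal muscle markers.

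**Figure D2:**
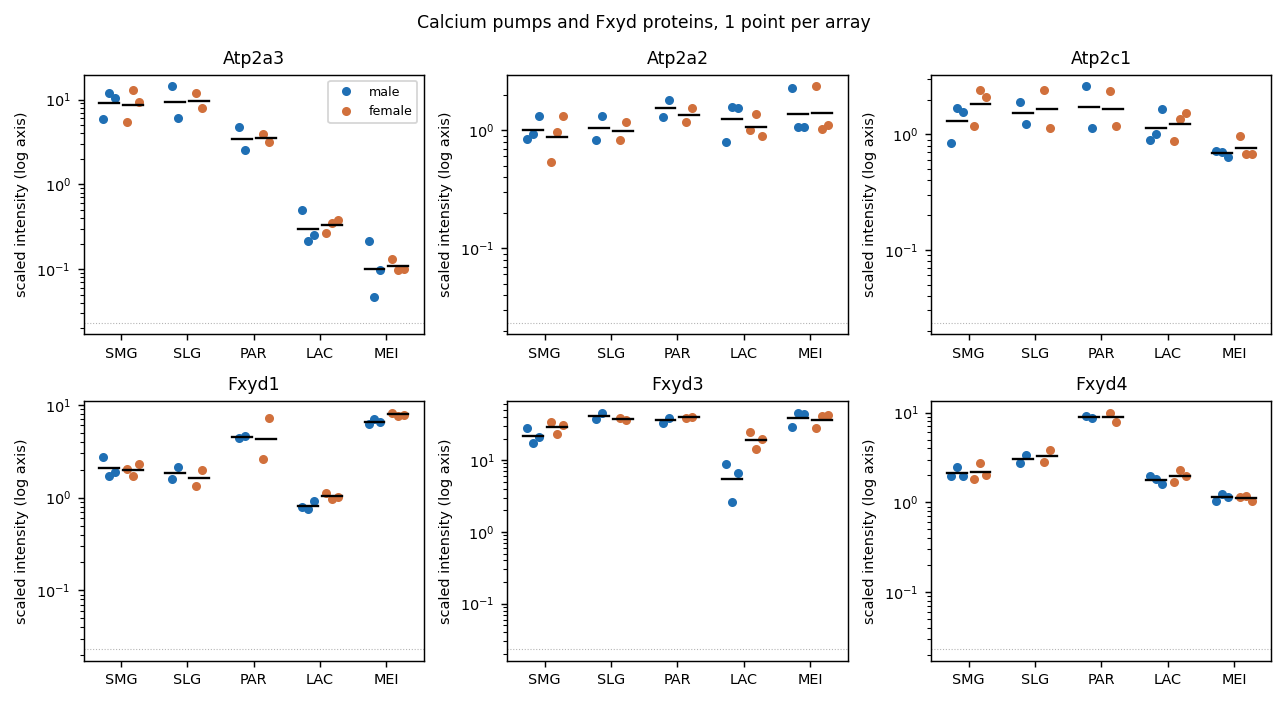
Scaled intensity on a log axis of 3 calcium pumps and 3 Fxyd members on every array, by gland (SMG submandibular, SLG sublingual, PAR parotid, LAC lacrimal, MEI meibomian), with male pools left of female pools and bars at group geometric means; the dotted line is the floor of 0.0234. Atp2a3 lies between 2.53 and 14.3 on all salivary arrays and at or below 0.493 on all lacrimal and meibomian arrays.

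Sodium and proton pumps and the Fxyd regulators. The sodium pump needs a beta subunit to reach the membrane, and small Fxyd proteins tune its affinity for ions. Of the 4 tested pump subunits, 2 were called higher in the meibomian gland (Atp1b3, a beta subunit, 1.05; Atp4a, the catalytic subunit of the gastric proton pump, 1.44, at least 2.02-fold), and none was called in any other gland. Of the 6 Fxyd members, 2 were higher and 1 lower in the meibomian gland, 2 were higher in the parotid gland, and 1 was higher and 2 were lower in the lacrimal gland. Beside these counts, 17% of all probes were called higher and 20.9% lower in the meibomian gland. The shares of all probes were 8.95% higher in the parotid gland, and 11.6% higher and 8.58% lower in the lacrimal gland.

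Fxyd4, also called CHIF and known from kidney and colon, was highest in the parotid gland. Its 4 parotid arrays read 9.16, 8.63, 9.97 and 7.78, and the 22 arrays of the other glands ran from 1.03 to 3.8 (median 1.96). The groups did not overlap, and the log2 difference was 2.18 ± 0.14 (adjusted p = 1.23e-10). Fxyd1, phospholemman, is abundant in heart and skeletal muscle. It ran from 6.18 to 8.22 in meibomian arrays (median 7.35) and from 0.746 to 7.16 in the other 20 arrays (median 1.79), a difference of 1.90. Its parotid arrays read 4.35, 4.57, 2.58 and 7.16 (1.0 ± 0.19, adjusted p = 0.000299). In the lacrimal gland it was lower than in every other array, 0.746 to 1.11 against 1.33 to 8.22, a difference of -1.83. Skeletal muscle markers were high in the same eyelid and parotid samples, and their part in the Fxyd1 values was not tested.

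Fxyd3, a regulator found in many epithelia, was lower in the lacrimal gland than in the others (-1.75), with its 3 male pools the lowest of all 26 arrays. Fxyd2 and Atp1b1, the sodium pump subunits set apart from the members, had geometric means of 3.03 and 1.79 in the lacrimal gland and 4.03 and 8.22 in the meibomian gland. Fxyd2 had 252, 158 and 162 in the submandibular, sublingual and parotid glands, and Atp1b1 had 75.7, 41.6 and 45.3. Of 14 tested partners in salt and fluid transport, 6 were called higher and 1 lower in the submandibular gland, while the lacrimal gland had 2 higher and 6 lower, and the meibomian gland 3 higher and 7 lower. The shares of all probes were 5.68% higher and 6.61% lower, 11.6% and 8.58%, and 17% and 20.9% in these 3 glands. Slc12a2, the basolateral sodium, potassium and chloride cotransporter, had geometric means of 56.3, 44.4 and 45.1 in the submandibular, sublingual and parotid glands, against 3.22 in the lacrimal and 6.43 in the meibomian gland. Among the 2 copper pumps, Atp7a, the Menkes disease transporter, was called higher in the meibomian gland (1.06, at least 1.15-fold, since the other glands were dim), where the 2 pools of array set 1 read 0.75 and 0.799 and the 4 of set 2 read 0.253 to 0.331, and Atp7b was not called in any gland. Atp7a passed the filter only through meibomian tissue, so its call is not independent of the filter.

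Lipid flippases. These P4-type pumps turn phospholipids from the outer to the inner leaflet of a membrane. Each of the 4 tested members was highest in a different gland. Atp8a1 was highest in the meibomian gland, where the 6 arrays ran from 1.31 to 2.21 (median 1.39), against 0.0968 to 0.577 in the other 20 arrays (median 0.224). The groups did not overlap. The log2 difference was 2.84 ± 0.27 (adjusted p = 1.37e-08), and because the 3 salivary glands were dim the fold was at least 4.84. Atp8a1 passed the filter only through meibomian tissue, so this call is not independent of the filter. It was called lower in the submandibular gland (-1.32 ± 0.27, adjusted p = 0.000802, at least 1.18-fold).

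Atp11a was highest in the lacrimal gland. The 6 lacrimal arrays ran from 8.03 to 17.2 (median 10.6), against 0.564 to 4.09 in the 16 other arrays with a value (median 2.91). The groups did not overlap, with a log2 difference of 2.52 ± 0.18 (adjusted p = 9.17e-09). In the meibomian gland the probe had a value on 2 of 6 arrays, 0.594 in a male and 0.564 in a female pool, both in set 1, and the other 4 held the missing code, so the fitted difference of -2.75 ± 0.28 (adjusted p = 2.15e-07) rests on those 2.

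Atp8b2 was highest in the parotid gland, at 1.53, 0.44, 0.697 and 0.529, against 0.0719 to 0.467 in the other 22 arrays (median 0.188). The 2 ranges met only in 1 parotid pool, male B at 0.44. The log2 difference was 1.92 ± 0.32 (adjusted p = 7.53e-05), at least 2.23-fold. Atp8b2 passed the filter only through parotid tissue, so this call is not independent of the filter. Atp10a was highest in the submandibular gland, with 1.26 to 2 (median 1.57) against 0.111 to 1.09 in the other 20 arrays (median 0.779). Those groups did not overlap (1.26 ± 0.24, adjusted p = 0.000394, at least 2.24-fold). Tmem30a, the only partner subunit of the flippases tested, was not called in any gland.

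V-type proton pump. The V1 sector in the cytosol hydrolyses ATP and the V0 sector in the membrane carries protons. Over the 66 pairs of the 12 kept probes, the correlation across the 10 group means had a median of 0.136, ran from -0.858 to 0.934 and was positive in 42 pairs. Atp6v1c1 had the lowest mean correlation with the other 11 subunits, -0.513. These points share arrays and are given as a description. In the meibomian gland, where 17% of all probes were called higher and 20.9% lower, 3 of 6 V1 probes were called higher and 1 lower. None of the 5 V0 probes was called, and a difference between the sectors was not tested.

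Atp6v1c1, the C subunit that clamps the V1 and V0 sectors together (chromosome 15, 38661904 to 38692444), was high in the parotid and lacrimal glands. The 4 parotid arrays read 113, 264, 130 and 204, against 5.06 to 240 in the other 22 arrays (median 29.1), a log2 difference of 2.56 ± 0.30 (adjusted p = 1.02e-06). The 6 lacrimal arrays ran from 56.2 to 240 (median 142), against 5.06 to 264 in the other 20 arrays (median 24.6), a difference of 2.10 ± 0.26 (1.28e-06). The 6 meibomian arrays, from 5.06 to 6.67 (median 6.19), lay below every other array, 18.9 to 264 (-3.46 ± 0.26, adjusted p = 3.25e-10). For this probe 8 of the 10 pairs of glands were called, all but submandibular with sublingual and parotid with lacrimal.

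Atp6v1g1, a subunit of the peripheral stalk, went the other way and was highest in the meibomian gland, from 47.8 to 105 (median 76.2), against 8.69 to 31.6 in the other 20 arrays (median 16.5). The groups did not overlap (log2 difference 2.11). Atp6v1d, part of the central rotor, was highest in the sublingual gland, at 72.3, 176, 75.2 and 133, against 17.4 to 74.3 in the other 22 arrays (median 38.7). Only the lowest sublingual array overlapped with another gland (1.52 ± 0.26, adjusted p = 0.000173). T cell, B cell and nerve markers were high in the same arrays, and their part in the sublingual values of Atp6v1d, Atp2a3 and Abcb9 was not tested. Atp6v1d was called lower in the parotid gland, at 17.5, 32.9, 17.4 and 35.9 (-1.13 ± 0.26, adjusted p = 0.00169). That difference was below the minimum of 1 in array set 2 alone (-0.88, with 1 parotid pool per sex). It was so too without parotid pool A of either sex (-0.87 without the female, -0.90 without the male pool).

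Atp6v1a, the catalytic subunit, was called lower in the lacrimal gland, where arrays ran from 0.371 to 1.68 (median 0.855), against 1.33 to 10.3 in the other 20 arrays (median 3.7). The log2 difference was -2.10 ± 0.36 (adjusted p = 7.02e-05). In the meibomian gland it was higher by 1.43. Atp6ap1, the accessory subunit Ac45, was also lower in the lacrimal gland, from 2.03 to 3.85 (median 2.74), against 8.56 to 15.3 in the other 20 arrays (median 11). Those groups did not overlap (-1.97 ± 0.14, adjusted p = 2.68e-10). Atp6v0a2, a V0 subunit of endosomes and Golgi, was called lower in the sublingual gland, at 0.273, 0.326, 0.336 and 1.13, against 0.759 to 2.55 in the other 22 arrays (median 1.39). The difference was -1.66 ± 0.26 (adjusted p = 8.93e-05, at least 3.01-fold). In array set 2 alone, with 1 sublingual pool per sex, it was -1.06. Of 15 tested lysosome and vesicle partners, 4 were higher and 1 lower in the meibomian gland (17% and 20.9% of all probes), and in each other gland at most 1 was called.

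**Figure D3:**
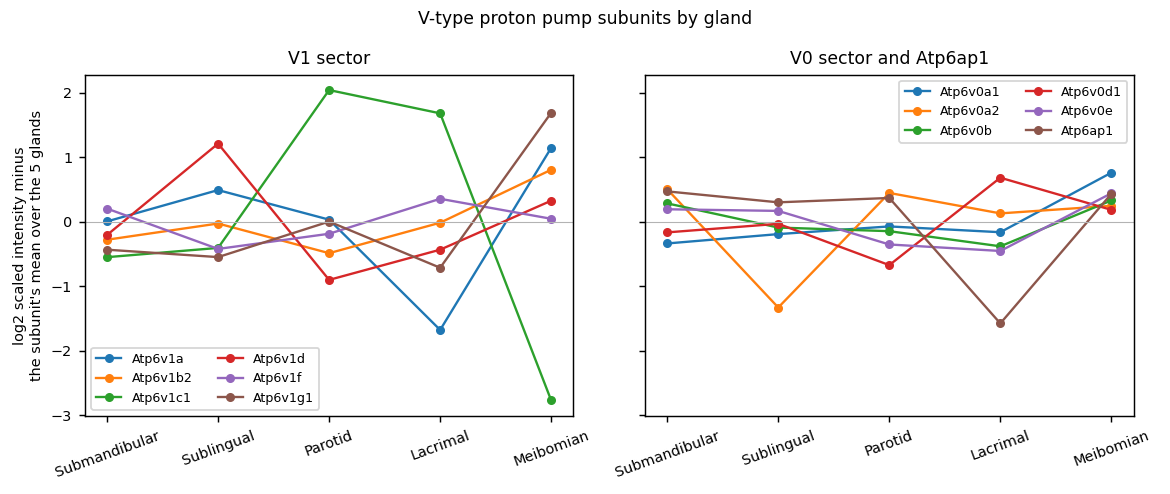
Gland means of the 12 tested V-type pump probes, as log2 differences from each probe's mean over the 5 glands, with the V1 probes on the left and the V0 probes and Atp6ap1 on the right. Atp6v1c1 is lowest and Atp6v1g1 highest in the meibomian gland, and Atp6ap1 is lowest in the lacrimal gland.

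ABC families A and G, the sterol and lipid exporters. Abca1 (chromosome 4, 53030789 to 53159988), which loads cholesterol onto apolipoprotein A-I, and Abcg1 (chromosome 17, 31057694 to 31117984), which passes cholesterol on to larger lipoproteins, were both highest in the meibomian gland. Abca1 ran from 2.3 to 2.99 there (median 2.73), against 0.148 to 0.721 in the other 20 arrays (median 0.437). Abcg1 ran from 2.37 to 2.98 (median 2.75), against 0.219 to 1.02 (median 0.497). For both genes every meibomian array lay above every other array, with log2 differences of 2.73 ± 0.20 (adjusted p = 2.42e-10) for Abca1 and 2.40 ± 0.16 (5.23e-11) for Abcg1.

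Abcg2, which exports urate, porphyrins and drugs, was called higher there as well (1.01), and Abcg8, the sterol transporter of liver and gut, was not called in any gland. Within family A, Abca8b was also higher in the meibomian gland (1.04, at least 1.81-fold), while Abca2 and Abca4 were lower (-1.75 and -1.67). Abca1 was called lower in the submandibular gland, where arrays ran from 0.148 to 0.428 (median 0.26), against 0.236 to 2.99 in the other 20 arrays (median 0.584), a difference of -1.47 ± 0.20 (adjusted p = 8.69e-06). Abca4, the retinoid transporter of photoreceptors, was highest in the lacrimal gland (1.69, at least 3.21-fold).

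Abca2, a lysosomal transporter best known from oligodendrocytes, was highest in the parotid gland. Its 4 parotid arrays read 12.7 and 3.18 in the male pools and 8.52 and 2.93 in the female pools, against 0.434 to 3.05 in the other 22 arrays (median 0.918). Both high pools were of array set 1, and the lowest parotid pool, female B, lay within the range of the other arrays. The log2 difference was 2.40 ± 0.30 (adjusted p = 2.27e-06) over all arrays, 1.71 in set 2 and 2.95 in set 1.

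Of 10 tested sterol and lipid partners, 5 were called higher and none lower in the meibomian gland, and 4 were lower and none higher in the lacrimal gland. For all probes the shares were 17% higher and 20.9% lower in the meibomian gland, and 11.6% higher and 8.58% lower in the lacrimal gland. Apoe, the apolipoprotein that takes up exported cholesterol, had geometric means of 98.1 in the meibomian gland and 42.3, 38.1, 33.2 and 20.7 in the submandibular, sublingual, parotid and lacrimal glands (log2 difference 1.60, adjusted p = 3.68e-06). Scarb1, a lipoprotein receptor, was 2.10 higher on the log2 scale in the meibomian gland.

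ABC families C and D. Abcc1, which exports glutathione conjugates and leukotriene C4, had 2 probes, and both were called higher in the meibomian gland. Probe 298 ran from 6.42 to 10.7 (median 7.99), against 0.532 to 3.28 in the other 20 arrays (median 1.32), with no overlap (2.62 ± 0.22, adjusted p = 1.81e-09). Probe 4218 was dim in the other 4 glands, so its difference of 1.83 is a bound of at least 1.31-fold. It passed the filter only through the meibomian arrays. Its fitted parotid difference (-1.38 ± 0.46, adjusted p = 0.0225) sets dim values against mostly dim values and gives no fold. In array set 2 alone, with 1 parotid pool per sex, that difference was only -0.55. Probe 298 was called lower in the lacrimal gland (-1.44), where probe 4218 was dim.

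Abcd3, the peroxisomal membrane transporter PMP70, ran from 6.11 to 10.8 in meibomian arrays (median 9.49), against 0.678 to 5.05 in the other 20 arrays (median 1.89). The groups did not overlap (2.34 ± 0.34, adjusted p = 4.59e-06), with 2.76 in array set 2 and 1.65 in set 1. In the parotid gland its arrays read 1.76, 1.08, 1.63 and 0.994, and the call there (-1.08 ± 0.40, adjusted p = 0.0388) was lost in 11 alternative settings. Among them were the pool letter as an effect shared by all glands (-0.87, adjusted p = 0.0585) and leaving out any parotid pool (-0.9 to -1.26). Of 12 tested peroxisome partners, 5 were higher and 1 lower in the meibomian gland, beside 17% and 20.9% of all probes. Hsd17b4, an enzyme of peroxisomal beta-oxidation, was 1.20 higher on the log2 scale there and 2.09 higher in the lacrimal gland, and the peroxisome biogenesis factor Pex19 was 1.40 higher in the meibomian gland.

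**Figure D4:**
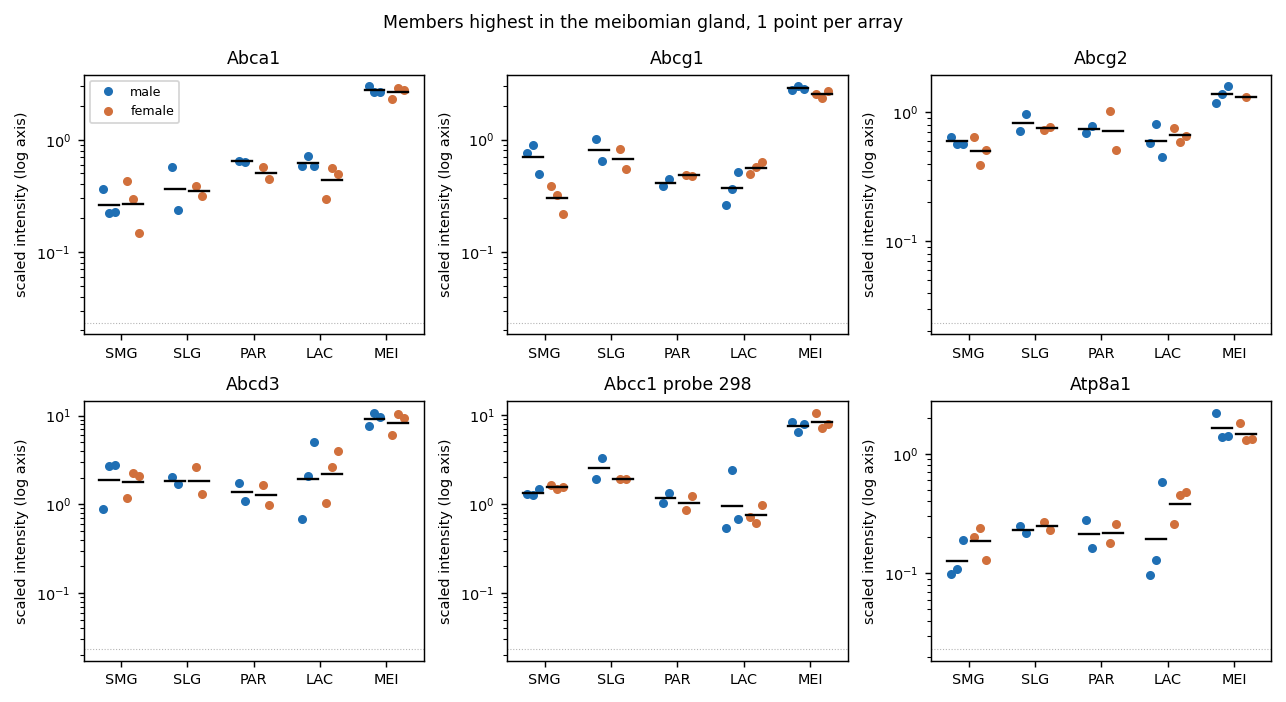
Scaled intensity on a log axis of 6 members called higher in the meibomian gland, on every array by gland (abbreviations as before), male pools left of female pools, bars at group geometric means. For Abca1, Abcg1, Abcd3, Abcc1 probe 298 and Atp8a1 all 6 meibomian arrays lie above the other 20, and for Abcg2 the 4 meibomian arrays with a value, at 1.19 to 1.59, do so too.

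Families B and C in the lacrimal gland. Abcb11 is the bile salt export pump of the liver, Abcb1a the drug exporter P-glycoprotein and Abcc2 the exporter of glucuronide and glutathione conjugates in the canalicular membrane of hepatocytes. All 3 were called higher in the lacrimal gland than in each of the other glands. Abcb11 ran from 0.727 to 4.52 in lacrimal arrays (median 2.18), against 0.162 to 1.23 in the other 20 arrays (median 0.437). Only 1 lacrimal pool, male B, fell within the range of the others. The log2 difference was 2.21 ± 0.21 (adjusted p = 4.04e-08, at least 4.29-fold). Abcb11 was called lower in the meibomian gland (-2.00, at least 2.94-fold).

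Abcc2 ran from 0.125 to 4.94 in lacrimal arrays (median 1.34), against 0.0234 to 0.191 in the other 20 arrays (median 0.0788), a log2 difference of 3.44 ± 0.34 (adjusted p = 6.41e-08, at least 2.54-fold). It was dim in the other 4 glands and passed the filter only through the male lacrimal group, so the lacrimal call is not independent of the filter. Abcb1a ran from 0.22 to 3.23 (median 1.44), against 0.0901 to 0.502 (median 0.275), a difference of 2.10 ± 0.34 (adjusted p = 4.13e-05, at least 3.57-fold). For both genes the lacrimal range was wide and overlapped the other glands, and the low lacrimal pools were all of one sex, female for Abcc2 and male for Abcb1a. Abcb1a was also called lower in the submandibular gland (-1.26 ± 0.34, adjusted p = 0.00782, at least 1.58-fold). The related gene Abcb1b did not pass the filter, and whether either probe also reads the other gene was not tested. Abcb9, a lysosomal peptide transporter, was called higher in the sublingual gland, at 0.812, 1.67, 1.08 and 1.1 against 0.326 to 1.01 in the 20 other arrays with a value (1.06 ± 0.22, adjusted p = 0.00134, at least 2.04-fold). The difference was 0.80 without male sublingual pool B and had an adjusted p of 0.163 with missing values set to the floor. Abce1, Abcf1 and the other member of families E and F, which act on ribosomes and not on membranes, had no gland call.

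Sex differences in the lacrimal gland. The question was which members differed between male and female glands, and the lacrimal gland had the most calls. Of 55 members 4 were called (7.27%), beside 5.43% of all probes: Abcc2 was higher in males (2.91% of all probes were higher) and Abcb1a, Fxyd3 and Abcb11 were lower in males (2.53% of all probes were lower). The members' share was near the background. The fit used 1 spread per probe for all glands, while pools varied most in the lacrimal gland (median SD 0.504). The lacrimal p-values can therefore be too small. In each of the 4 the male and female pools did not overlap. They were picked by adjusted p in these same arrays, so this adds no separate support. The share of all probes without overlap was not counted.

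The 250 bases before the start of these 4 genes are shown because they are the members whose lacrimal level differed by sex. They are RefSeq sequences on GRCm38.p6, each on the strand of its gene. A pair of 6-base motifs was searched on both strands: AGGTCA, a core element bound by many nuclear receptors, and AGAACA, a core element bound by the androgen receptor, which do not overlap each other in the matches found. Capitals mark matches on either strand. They lie at chr19:43782058-43782307 (plus strand) for Abcc2, chr5:8566841-8567090 (plus) for Abcb1a, chr2:69342617-69342866 (minus) for Abcb11 and chr7:31076698-31076947 (minus) for Fxyd3.
Abcc2: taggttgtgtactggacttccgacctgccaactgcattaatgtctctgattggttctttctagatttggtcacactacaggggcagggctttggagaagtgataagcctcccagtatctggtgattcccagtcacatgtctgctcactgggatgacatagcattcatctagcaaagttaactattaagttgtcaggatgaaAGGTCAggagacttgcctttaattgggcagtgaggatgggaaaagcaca
Abcb1a: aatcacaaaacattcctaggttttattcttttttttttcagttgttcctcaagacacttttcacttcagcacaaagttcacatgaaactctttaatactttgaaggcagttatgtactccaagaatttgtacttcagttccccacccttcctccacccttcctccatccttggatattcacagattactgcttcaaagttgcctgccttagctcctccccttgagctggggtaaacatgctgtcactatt
Abcb11: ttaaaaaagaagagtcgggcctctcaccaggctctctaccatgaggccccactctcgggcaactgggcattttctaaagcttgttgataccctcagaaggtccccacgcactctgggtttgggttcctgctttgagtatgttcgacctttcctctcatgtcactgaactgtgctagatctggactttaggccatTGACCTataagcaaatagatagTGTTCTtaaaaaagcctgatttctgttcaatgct
Fxyd3: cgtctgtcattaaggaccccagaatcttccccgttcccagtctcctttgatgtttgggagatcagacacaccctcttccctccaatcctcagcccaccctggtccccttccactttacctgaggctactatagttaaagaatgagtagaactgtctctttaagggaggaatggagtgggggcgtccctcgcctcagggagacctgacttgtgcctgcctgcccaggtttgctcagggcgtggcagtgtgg
Abcc2 had AGGTCA on the gene's strand 49 bases before the start. Abcb11 had AGGTCA on the opposite strand 56 bases before the start and AGAACA on the opposite strand 34 bases before it, printed in capitals as their reverse complements. Neither motif was found in these windows of Abcb1a or Fxyd3. Of 32851 RefSeq promoter windows of the same length, 14% held AGGTCA, 16.1% held AGAACA and 2.43% held both, so a match is a description and marks no site of binding.

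Abcc2 read 4.94, 2.16 and 3.21 in male lacrimal pools A, B and C, against 0.139, 0.125 and 0.52 in female pools. Every male pool lay above every female pool (3.96 ± 0.60 on the log2 scale, adjusted p = 0.000151). In 2 of the 3 female pools the probe was below the 30th percentile of its array, and with those at that percentile the male level was at least 7.76-fold higher. The difference was 3.89 within array set 2 and 4.11 within set 1. It was the only member whose sex difference itself differed between glands in the F test of sex by gland (1 of 55 members, 1.82%, beside 2.66% of all probes, adjusted p = 0.0198). Abcc2 had passed the filter only through the male lacrimal group, and 8 of the 10 groups were dim for it. Its sex call and its F test set that same group against dim or mostly dim groups, so they are not independent of the filter. That F test did not pass with array weights (0.195), in set 2 alone (0.14), or without female lacrimal pool A (0.0843) or B (0.0863) or male lacrimal pool A (0.0765) or C (0.0517). In the meibomian gland the difference was 0.89 ± 0.60 and not called (adjusted p = 1).

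Abcb1a ran the other way, with 0.22, 0.244 and 0.788 in male pools, against 3.23, 2.08 and 2.58 in female pools. All female pools lay above all male pools, with a log2 difference of -2.89 ± 0.60 (adjusted p = 0.00432; set 2 -2.79, set 1 -3.10). The probe was below the 30th percentile in 2 of the 3 male pools, and with those at that percentile the male level was at least 5.47-fold lower. The call was lost with array weights (adjusted p = 0.085). Fxyd3 read 8.9, 2.64 and 6.64 in male pools, against 24.9, 14.5 and 19.9 in female pools, with no overlap and a 3.58-fold lower male level (-1.84 ± 0.35, adjusted p = 0.00168; set 2 -1.53, set 1 -2.45). With only lacrimal arrays in the fit, its adjusted p was 0.206.

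Abcb11 read 2.07, 0.727 and 1.77 in male pools, against 4.52, 2.28 and 4.36 in female pools. The lowest female pool lay just above the highest male pool, and the male level was 2.57-fold lower (-1.36 ± 0.37, adjusted p = 0.0336). This call was the least firm of the 4: the adjusted p was 0.139 without female pool A, 0.121 without female pool C, 0.194 without male pool B and 0.0528 with no filter on dim probes. With array weights it was 0.178, and with only lacrimal arrays in the fit 0.46. Neither Abcb1a, Fxyd3 nor Abcb11 passed the F test of sex by gland (adjusted p of 0.138, 0.119 and 0.222), so a difference of their sex effect between glands was not shown.

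Other markers moved with sex in these arrays. The 6 B and plasma cell markers summed to 81.7, 72 and 41.7 in male pools, against 35.1, 12.6 and 20.3 in female pools. The 6 meibomian markers summed to 12, 11.2 and 13.2 in male pools, against 6.96, 6.54 and 8.56 in female pools. Neither list overlapped between the sexes. The 6 adipocyte markers, of which 2 were called lower in males, summed to 29.2, 11.9 and 11 in male pools, against 46, 30.8 and 21.8 in female pools. The part of these lists in the member differences was not tested. The 4 submandibular markers summed to 19.3, 5.62 and 6.7 in male pools, against 11, 95.2 and 9.77 in female pools, so female pool B stood apart. All 4 member calls between the sexes were kept without that pool. The count of members was 7 without male lacrimal pool C (2 higher, 5 lower) and, under quantile normalization, also 7 (3 higher, 4 lower, 42.9% higher against 25%). The shares of all probes called in these settings were not counted.

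Same-letter pools of the 2 sexes deviated together in each gland with 3 pools, so the letter was also used as a block. With it, 12 of 55 lacrimal members were called (21.8%, beside 13.5% of all probes), 4 higher and 8 lower. The 4 above were among them, with Abcc2 at an adjusted p of 0.000106, Fxyd3 at 4.29e-05, Abcb11 at 0.000171 and Abcb1a at 0.00215. Called in addition were Abca2 (1.13), Atp6v0e (0.77) and Fxyd7 (0.98) as higher in males, and Abcb10, Abcf1, Abcg1, Atp4a and Atp6v1c1 as lower (-0.58 to -0.79). In the blocked F test of sex by gland 7 members were called (12.7%, beside 7.08% of all probes): Abca2, Abcb11, Abcb1a, Abcc2, Abcg1, Atp6v0e and Fxyd3.

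**Figure D5:**
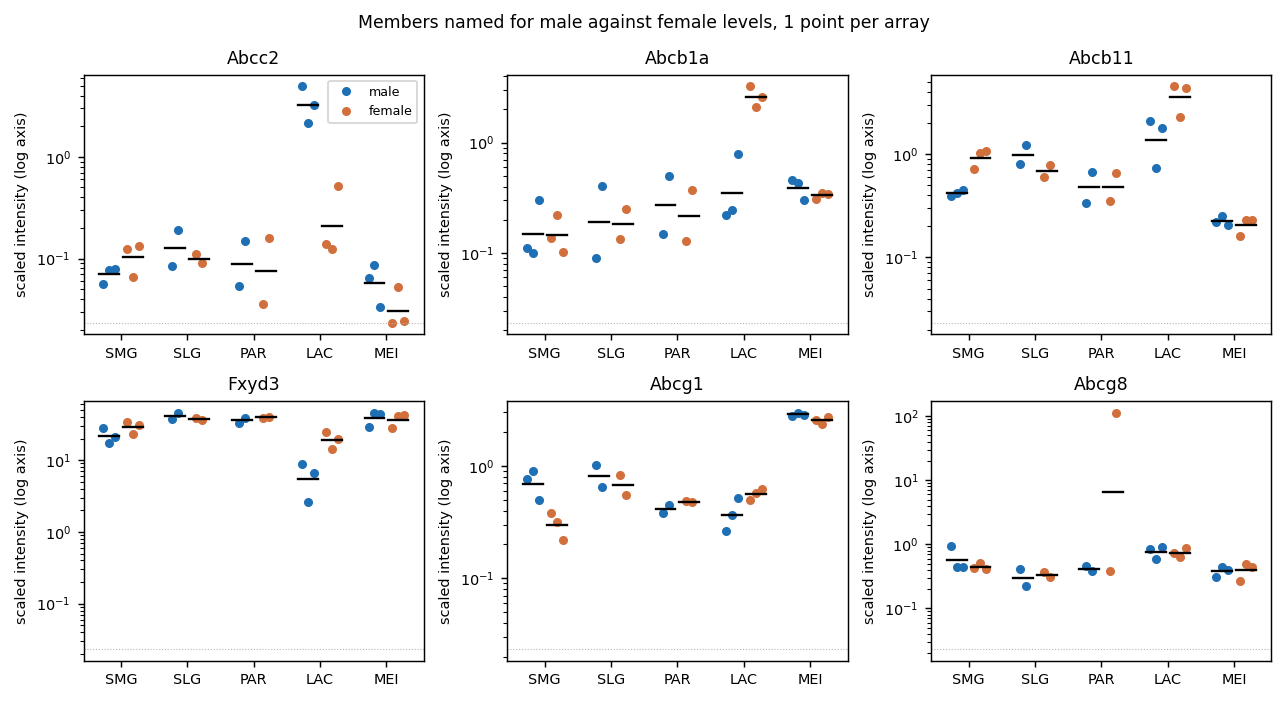
Scaled intensity on a log axis of the 5 members called between the sexes and of Abcg8, with male pools left of female pools in each gland and bars at group geometric means. In the lacrimal gland Abcc2 lies at 2.16 to 4.94 in male and 0.125 to 0.52 in female pools, and Abcb1a, Fxyd3 and Abcb11 are lower in all male than in all female pools.

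Sex differences in the other glands. In the submandibular gland 1 of 55 members was called (1.82%, beside 2.61% of all probes). Abcg1 read 0.759, 0.894 and 0.497 in male pools, against 0.382, 0.318 and 0.219 in female pools. The pools did not overlap, with a log2 difference of 1.22 ± 0.28 (adjusted p = 0.0163; set 2 1.09, set 1 1.49). The probe was below the 30th percentile in 2 of the 3 female pools, and with those at that percentile the male level was at least 2-fold higher. The call was lost in set 2 alone (adjusted p = 0.316), and without female pool C (0.105), male pool A (0.083) or male pool B (0.117), which left no call in the gland, while without male lacrimal pool B or C there were 2 calls. Skeletal muscle markers moved with sex in these arrays: 7 of 13 were called higher in males, with sums of 26.9 to 34.4 in male and 8.12 to 9.84 in female pools, and so were 4 of 7 smooth muscle markers. Their part in the Abcg1 difference was not tested.

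In the lacrimal gland Abcg1 read 0.261, 0.364 and 0.519 in male pools, against 0.497, 0.574 and 0.628 in female pools (-0.62 ± 0.28, adjusted p = 0.288), and the F test of its sex effect by gland had an adjusted p of 0.0811. With the letter as a block, the lacrimal difference was called (adjusted p = 0.0213) and the F test too (0.00292). The blocked fit called 5 submandibular members (9.09%, beside 7.29% of all probes): Abcg1 (1.22 ± 0.15, adjusted p = 0.000615) and Atp6v0e (0.62) were higher in males, and Abcb10 (-0.76), Abcb11 (-1.13) and Atp6v1c1 (-0.69) were lower. Abcb11 there read 0.396, 0.422 and 0.452 in male pools, against 0.719, 1.02 and 1.07 in female pools. The pools did not overlap, as in the lacrimal gland and in the same direction.

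No member was called between the sexes in the sublingual, parotid or meibomian gland by limma, beside 0.208%, 0.0244% and 0.0366% of all probes, with or without the block. At an unadjusted p under 0.05 there were 1, 2 and 0 of 55 members, beside 239, 133 and 19 of 8191 probes. In the sublingual gland Atp6v0a2 read 0.273 and 0.326 in male pools, against 0.336 and 1.13 in female pools (-1.05 ± 0.49, adjusted p = 1), and Abce1 read 9.78 and 12.9 against 8.53 and 7.33 (0.51 ± 0.29, adjusted p = 1). In the meibomian gland, beside Abcc2, the smallest p was that of Fxyd1 (-0.26 ± 0.28, adjusted p = 1).

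In the parotid gland the 2 members of smallest p each rested on few arrays. Abcg8 read 0.455 and 0.381 in male pools, against 0.383 and 113 in female pools (-3.98 ± 1.34, adjusted p = 1), so the difference came from female pool B alone. Without that pool it was 0.12, and without female pool A it was -8.08 and the gland had 1 call (adjusted p = 2.87e-09). Atp7a had 1 male value, 0.348 in pool B, against 0.0245 and 0.128 in female pools (2.63 ± 0.81, adjusted p = 1).

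Over the mean of the 5 glands no member was called by limma, beside 1.28% of all probes. An unadjusted p under 0.05 was found for 5 of 55 members, beside 653 of 8191 probes. Abcc2 (0.98 ± 0.29, adjusted p = 0.142) and Abcb10, a mitochondrial transporter needed for haem synthesis in erythroid cells (-0.34 ± 0.11, adjusted p = 0.185), had the smallest p. The count was 1 without female parotid pool A, female parotid pool B, female lacrimal pool C or male lacrimal pool C. With the letter as a block 6 members were called (10.9%, beside 4.04% of all probes): Abcc2 (0.98) and Atp6v0e (0.30) were higher in males, and Abcb10 (-0.34), Abcb11 (-0.37), Atp6v0a2 (-0.53) and Fxyd3 (-0.43) were lower. For the F test of sex by gland without the block, 1 call became 0 without female lacrimal pool A or B, and 2 without male submandibular C, male sublingual A, female parotid A or male lacrimal C, and in the last case Abcc2 was not among them.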

How the data were processed

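Messenger RNA of 5 glands was measured on 26 arrays of pooled RNA. The deposited table holds 1 linear intensity per probe and array, already scaled by the authors to a common median; labelling, scanner and scaling method: not given in the sources used here. Values of -1 (0.821% of cells, 15 of them in members) were taken as missing, other values under 0.0234 (the 1st percentile of positive values) were raised to it, and log2 was taken with no further normalization. Array medians spanned 0.0403 log2 units. Probe symbols came from the platform's annotation table, which can be old, and all 67 member probes were matched to RefSeq.

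Members and gene lists were chosen with earlier results of these data known. limma 3.58.1 in R 4.3.3 fitted 10 group means (16 residual and 4.15 prior degrees of freedom). The code was also run on simulated data with known changes, drawn with independent arrays and a single spread per probe. That simulation held neither the unequal spreads of the glands nor the shared deviations of same-letter pools, so it lends the calls no support. The median SD between pools was 0.504 in the lacrimal gland, 0.242 in the meibomian gland and 0.339 to 0.349 in the others. All groups shared a single spread per probe, so p-values can be too small in the lacrimal and too large in the meibomian gland. P-values measure the spread between pools, and the number of arrays limits the precision. Pool letters pair the sexes: the labels give male and female pools the same letters, and all 9 same-letter correlations of deviations from group means were 0.441 to 0.816 over 7555 probes.

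Named with values were, for each gland, up to 5 called members with the largest positive and up to 3 with the largest negative difference, every member called between the sexes or in the F test, and, without a call, the 2 of smallest p. Other named members, among them Abca4, Abca8b, Abcg2, Atp1b3, Atp2c1, Atp4a, Atp6v0e, Atp6v1g1, Fxyd7 and Fxyd1 in the meibomian and lacrimal glands, were chosen after their values were seen. Alternatives were quantile normalization, other floors and filters, array weights, a trended prior, the pool letter or array set as a block, each set alone, a gland's own arrays, no minimum difference and leaving out each pool.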

Additional observations from a re-analysis of the deposited data

Results flagged for a closer look

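Abcc2, the conjugate exporter, had a male minus female difference that differed between glands in the F test of sex by gland (adjusted p = 0.0198 by limma). The log2 difference was 3.96 in the lacrimal gland and 0.89 in the meibomian gland. It was higher in all 3 male than in all 3 female lacrimal pools. In the other 4 glands the probe was below the 30th percentile on all arrays, so a difference there would be hard to see at this signal. The probe passed the filter only through the male lacrimal group, so this test is not independent of the filter.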

How the results depend on the processing

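Of 47 named results, 46 did not reverse and 34 kept their status, called or not called, under every alternative that gave a value. The 34 include results that were not called in the main fit and were named for their small p. Of 1770 alternative values, 1711 stayed the same, 39 lost the call, 9 gained it, 2 reversed and 9 moved by more than the spread between pools without a test. Values of array set 1 alone, which have no test, counted as the same if they moved by less than that spread. The reversed ones were Abcg8 between the sexes in the parotid gland, at 0.25 in array set 1 alone and 0.12 without female parotid pool B (-8.08 without female pool A). Set 1 has 1 pool per group and gives no test, and set 2 has 1 pool per sex in the sublingual and parotid glands. Except where stated, the cause of a change was not tested.

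Between the sexes, the replicate block (pool letter within each gland) gave 5 member calls in the submandibular gland in place of 1, 12 in the lacrimal gland in place of 4, 6 over the mean of the glands in place of 0 and 7 in the F test in place of 1. It changed no call between the sexes in the other 3 glands. Gland tests used another block, with each letter's effect shared by all glands, although set 1 is pool A in some glands and pool B in others. Among named gland calls that block ended the one of Abcd3 in the parotid gland. For the alternatives that follow, the share of all probes called was not counted, so their counts describe the settings and not the members. The array set as a block gave 3, 3 and 5 calls in the submandibular gland, over the mean and in the F test. Array weights gave 3 in the submandibular gland, 2 in the lacrimal gland and 0 in the F test. Quantile normalization gave 7 in the lacrimal gland, 1 over the mean and 3 in the F test. Set 2 alone gave 0 in the submandibular gland. Its counts for the parotid gland and over the mean rest on 1 parotid pool per sex and are left out. Only the gland's own arrays, with fewer residual degrees of freedom and the gland's own spread, gave 0 in the submandibular and 2 in the lacrimal gland. Leaving out each pool gave 0 to 2 calls in the submandibular gland, 0 to 1 in the parotid gland, 3 to 7 in the lacrimal gland, 0 to 1 over the mean and 0 to 2 in the F test.

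Between glands, dropping the minimum difference gave 21 calls in the submandibular gland (5 with it), 10 in the sublingual gland (4), 21 in the parotid gland (9), 30 in the lacrimal gland (15), 41 in the meibomian gland (27) and 264 over pairs of glands (174). The share of all probes called was not counted for this or the other alternatives between glands. These counts therefore describe the settings and not the members. Set 2 alone gave 9 in the submandibular gland, and no filter gave 24 in the lacrimal gland, with 67 members tested. Probes below the 30th percentile have only a bound, and with 2 pools per sex the sublingual and parotid comparisons between the sexes had the least precision.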

Other observations

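Of 12 tested relatives outside the rule, which include the 3 genes set apart from the members, 5 were called lower and 1 higher in the meibomian gland, and 4 were lower and none higher in the lacrimal gland. In the submandibular gland 3 were higher and 1 lower, in the sublingual gland 2 were higher and 1 lower, and in the parotid gland 3 were higher and none lower. Of all probes, 17% were higher and 20.9% lower in the meibomian gland, and 11.6% and 8.58% in the lacrimal gland. The shares were 5.68% and 6.61% in the submandibular, 5.9% and 5.26% in the sublingual, and 8.95% and 8.13% in the parotid gland. Of 7 tested copper-handling partners, 1 was called higher in the meibomian gland and none lower. Of the 14 salt and fluid partners, 1 was higher and 1 lower in male than in female submandibular glands, where 2.61% of all probes were called.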
